A study of Mus musculus with 9 samples.

Results

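The 8 genes described here handle iron and heme: Hmox1 and Blvrb break heme down, Hp binds free hemoglobin, Tfrc, Slc11a1 and Slc11a2 move iron into cells or out of endosomes, Fth1 stores it and Slc40a1 exports it. They were taken by gene symbol, as every probe set of the expression table whose platform annotation names that gene alone. This gave 18 of 45101 probe sets, and all 8 members were measured among 18193 genes. No filter on low values was applied, so no member was left out.

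Expression was measured on 9 Affymetrix mouse arrays of CD11b+ myeloid cells from inflamed lung. All mice were female 4get animals on the BALB/c background, 6 to 8 weeks old; 4get mice carry a green fluorescent reporter (GFP) for the Il4 gene. All received 0.5 µg of recombinant interleukin-25 (IL-25), a cytokine that starts type 2 inflammation, in 50 µL of PBS into the trachea on each of 4 days, so these data hold no untreated group. For each replicate the cells of 4 mice were pooled and 400000 cells were sorted, and 50 ng of RNA was amplified. The T2M (type 2 myeloid) label has 3 arrays and was sorted as IL-4/GFP+, IL-5rα-, F4/80+, low for MHC class II and intermediate for Gr-1. The eosinophil label has 2 arrays (IL-4/GFP-, IL-5rα+, F4/80-, low for MHC class II, high for Gr-1). The neutrophil label has 2 arrays (IL-4/GFP-, IL-5rα-, F4/80-, low for MHC class II, Gr-1+), and the macrophage label has 2 arrays (IL-4/GFP-, IL-5rα-, F4/80+, positive for MHC class II, Gr-1-). A replicate is therefore a pool of mice, and whether replicates of different labels shared mice is not stated in the labels.

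Iron enters most cells bound to transferrin, through the transferrin receptor, and is released in endosomes as a metal ion that divalent metal transporters carry into the cytosol. Ferritin stores what is not used, and ferroportin, the product of Slc40a1, is the only iron exporter known in mammals. Macrophages that clear red cells and hemoglobin free the iron of heme with heme oxygenase and return it to the circulation, and myeloid cells also withhold iron from microbes.

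The values are log2 levels per probe set, so a difference of 1 is a 2-fold difference, and levels of different probe sets are not comparable. Array medians ran from 5.48 to 5.68. The cell labels did not match their markers in all cases. The mean level of 5 eosinophil markers (Ccr3, Siglecf, Epx, Prg2, Il5ra) was 8.94 to 9.26 on T2M-labelled arrays, against 5.94 to 6.58 on eosinophil-labelled, 4.45 to 7.09 on neutrophil-labelled and 4.42 to 4.49 on macrophage-labelled arrays. The mean of 5 neutrophil markers (Csf3r, Cxcr2, Mmp8, Cd177, Camp) was 6.28 to 7.77 on T2M-labelled arrays, against 10.81 to 11.60 on eosinophil-labelled, 7.90 to 8.17 on neutrophil-labelled and 6.93 to 7.17 on macrophage-labelled arrays. The mean of 6 macrophage markers (Adgre1, C1qa, C1qb, C1qc, Mertk, Cd68) was 9.18 to 9.93 on T2M-labelled, 8.69 to 8.83 on eosinophil-labelled and 10.38 to 10.48 on neutrophil-labelled arrays, and lowest, at 8.04 to 8.45, on macrophage-labelled arrays. Each of the 5 eosinophil markers had its highest label mean on T2M-labelled arrays and each of the 5 neutrophil markers on eosinophil-labelled arrays. The macrophage markers did not share an order: C1qa, C1qc and Mertk were highest on neutrophil-labelled arrays, Adgre1 and C1qb on T2M-labelled arrays and Cd68 on macrophage-labelled arrays, and the list's mean runs over different probe sets. Each population is called by its label below, as "labelled". The 2 macrophage-labelled arrays correlated at 0.994, against 0.915 to 0.970 for other pairs of 1 label. Each member call against them is also given with both averaged to 1 sample. All 9 arrays share 1 estimate of the spread, so this pair also enters the errors of the comparisons without the macrophage label. The 2 neutrophil-labelled arrays were the least alike pair of 1 label, at 0.915. Their replicate 2 correlated at 0.954 and 0.953 with the 2 macrophage-labelled arrays. Each of the 5 eosinophil markers was higher on neutrophil-labelled replicate 1 than on replicate 2 (Prg2 at 8.14 against 3.79, Ccr3 at 6.81 against 3.79). Actin control probe sets gave a 3′ minus 5′ gap of 0.61 on T2M replicate 1 and 0.54 on eosinophil-labelled replicate 1, and -0.10 to 0.03 on the other arrays.

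The 8 genes were compared between every pair of labels with limma over all genes. Differences count as called where p, adjusted by Benjamini-Hochberg over all genes, stayed under 0.05. In 48 comparisons, 8 differences were called, and they involved Slc40a1, Hp, Slc11a1 and Tfrc. On T2M-labelled arrays, Hp and Slc40a1 were lower than on eosinophil-labelled arrays (2 of 8 members, against 2.89% of all genes called lower and 4.46% in either direction), and Slc11a1 was higher than on macrophage-labelled arrays (1 of 8, against 6.53% of all genes called higher and 17.2% in either direction). Between T2M-labelled and neutrophil-labelled arrays limma called 0 of 8 members, against 2.82% of all genes, and 5 of 8 had an unadjusted p under 0.05, against 16.2% of all genes. Eosinophil-labelled arrays were higher in Slc40a1 than neutrophil-labelled arrays (1 of 8, against 3.55% of all genes called higher and 7.88% in either direction). Against macrophage-labelled arrays they were higher in Slc40a1, Hp and Slc11a1 (3 of 8, against 5.89% of all genes) and lower in Tfrc (1 of 8, against 11.5%), 4 of 8 in all, against 17.4%. Between neutrophil-labelled and macrophage-labelled arrays limma called 0 of 8, against 2.26% of all genes, and 4 of 8 had an unadjusted p under 0.05, against 18.6% of all genes. Without moderation of the spread the called counts of these 2 comparisons were also 0 (all genes, 0.225% and 0.912%). In that fit, of the 8 calls the 6 of Slc40a1, Hp and Tfrc ended (adjusted p from 0.0583 to 0.162). The F test for any difference among the 4 labels called Slc11a1 (adjusted p = 0.0037), Slc40a1 (0.00878), Hp (0.00961) and Tfrc (0.0406), against 17.8% of all genes. The Tfrc call of that test ended without T2M replicate 2 (0.0547) or 3 (0.0684), eosinophil-labelled replicate 2 (0.0876) or macrophage-labelled replicate 1 (0.208) or 2 (0.173), with the macrophage-labelled arrays averaged (0.191), with the replicate number as a block (0.055) and with probe sets tested separately (0.0527), and that of Slc40a1 without eosinophil-labelled replicate 1 (0.0503). With 8 members, these counts describe single genes and not the group. The median member difference was -0.05 for T2M minus eosinophils, -0.16 for T2M minus neutrophils and 0.10 for T2M minus macrophages, and the medians of all genes were 0.06, -0.03 and 0.18. It was -0.31 for eosinophils minus neutrophils, 0.32 for eosinophils minus macrophages and 0.90 for neutrophils minus macrophages, and the medians of all genes were -0.07, 0.18 and 0.17.

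**Figure D1:**
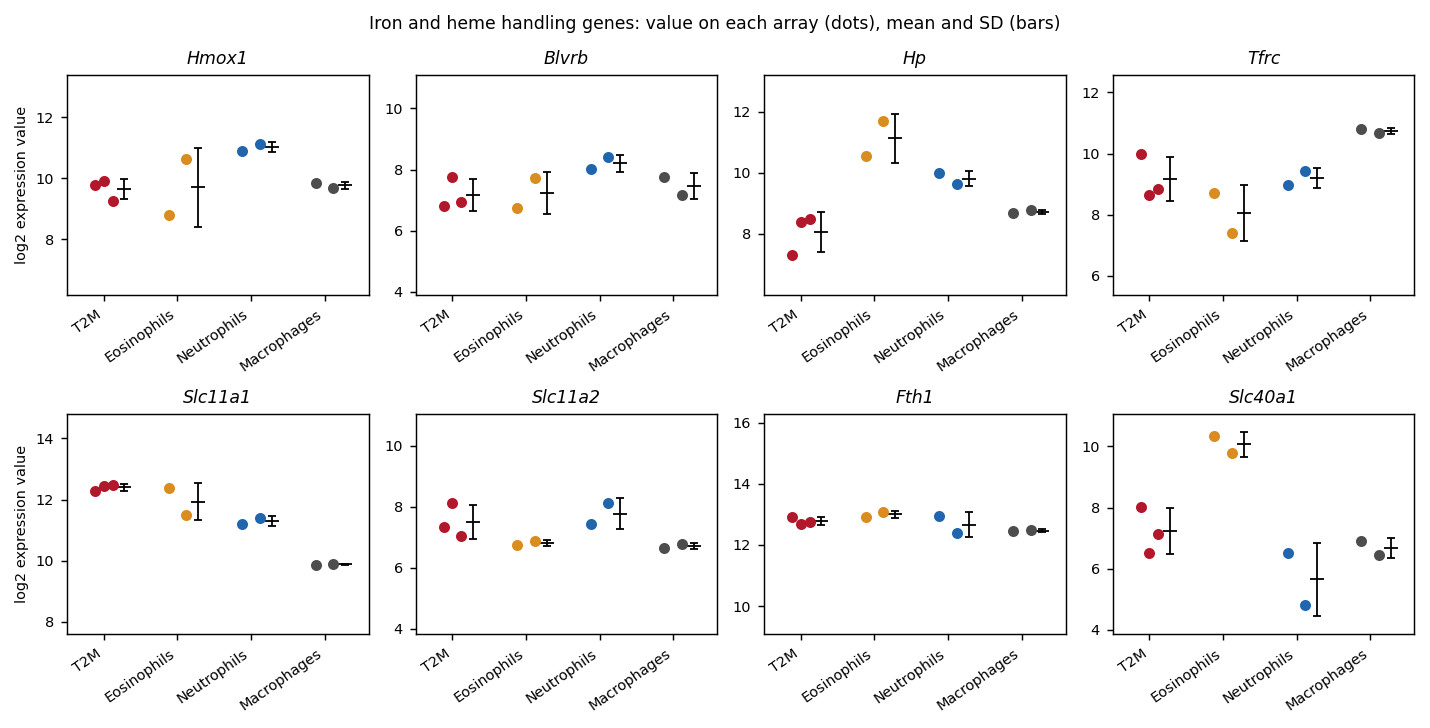
Log2 level of the 8 members on each array, by label (dots, 1 per array; bars, mean and SD; each gene has its own vertical range of equal length). Slc40a1 and Hp are highest on eosinophil-labelled arrays, Tfrc on macrophage-labelled arrays and Slc11a1 on T2M-labelled arrays, while the label means of Fth1 span 0.54.

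**Figure D2:**
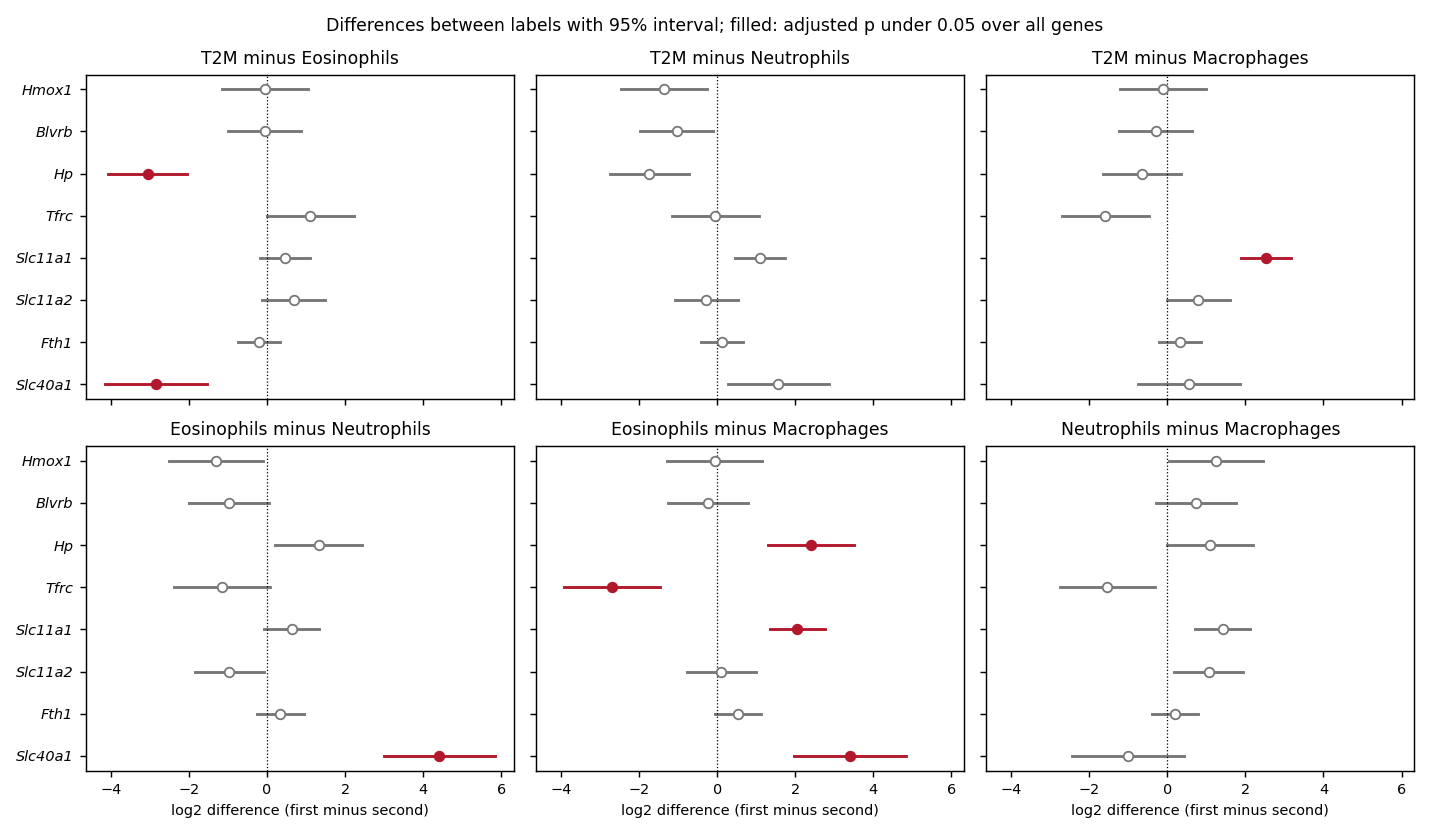
Log2 difference of each member in the 6 comparisons of labels, first label minus second, with its 95% interval from limma; filled points have an adjusted p under 0.05 over all genes. The 8 filled points are Hp and Slc40a1 for T2M minus eosinophils, Slc11a1 for T2M minus macrophages, Slc40a1 for eosinophils minus neutrophils, and Hp, Tfrc, Slc11a1 and Slc40a1 for eosinophils minus macrophages.

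Arrays of compared labels did not overlap for 4 of 8 members between T2M and eosinophils, 5 between T2M and neutrophils, 5 between T2M and macrophages, 7 between eosinophils and neutrophils, 5 between eosinophils and macrophages, and 6 between neutrophils and macrophages. With 2 or 3 arrays a label this was common: 33.5%, 25.8%, 68.4%, 40.4%, 77.8% and 59.8% of all genes did the same in these comparisons, in that order.

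Hmox1 encodes the inducible heme oxygenase, which opens the heme ring and frees its iron. Its log2 level was 9.77, 9.92 and 9.27 on T2M-labelled arrays, 8.79 and 10.62 on eosinophil-labelled, 10.90 and 11.13 on neutrophil-labelled, and 9.86 and 9.69 on macrophage-labelled arrays. Both neutrophil-labelled arrays lay above all 7 others, and the 2 eosinophil-labelled arrays enclosed the T2M-labelled and macrophage-labelled ones. No Hmox1 difference passed the test. The T2M mean was 1.37 below the neutrophil mean on the log2 scale (SE 0.48, 95% interval -2.47 to -0.26, adjusted p = 0.199), while its differences from eosinophils (-0.05, interval -1.16 to 1.05) and macrophages (-0.12, interval -1.22 to 0.98) were smaller than their errors. These intervals do not show that the levels were alike. Eosinophil-labelled arrays differed from neutrophil-labelled ones by -1.31 (adjusted p = 0.191). Without eosinophil-labelled replicate 2 this became -2.23 and was called, with replicate 1 as the only array of that label. The F test over the 4 labels for Hmox1 missed the threshold (adjusted p = 0.192). It passed without either eosinophil-labelled array, in fits where the gap between those 2 arrays (8.79 and 10.62) no longer counts as spread.

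Blvrb encodes biliverdin reductase B, an enzyme that reduces isomers of biliverdin, the pigment left by heme breakdown, as well as flavins. Its log2 level was 6.80, 7.77 and 6.93 on T2M-labelled arrays, 6.73 and 7.71 on eosinophil-labelled, 8.01 and 8.41 on neutrophil-labelled, and 7.76 and 7.16 on macrophage-labelled arrays. As for Hmox1, both neutrophil-labelled arrays were the highest, here by a smaller margin, and the other 3 labels overlapped. The T2M mean was 1.04 below the neutrophil mean (SE 0.41, adjusted p = 0.25), and no other Blvrb difference passed the test either. T2M minus eosinophils was -0.06 (95% interval -0.99 to 0.88) and T2M minus macrophages -0.30 (interval -1.23 to 0.64).

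Hp encodes haptoglobin, the plasma protein that binds free hemoglobin, which neutrophils also carry in their granules. Its log2 level was 7.31, 8.40 and 8.49 on T2M-labelled arrays, 10.56 and 11.69 on eosinophil-labelled, 9.98 and 9.63 on neutrophil-labelled, and 8.67 and 8.77 on macrophage-labelled arrays. The labels fell into the order eosinophils, neutrophils, macrophages, T2M with no overlap between any of them. Hp was 8.32-fold lower on T2M-labelled than on eosinophil-labelled arrays (log2 difference -3.06, SE 0.44, adjusted p = 0.0094), and 5.30-fold higher on eosinophil-labelled than on macrophage-labelled arrays (2.41, SE 0.48, adjusted p = 0.0121). Neighbours in the order did not differ past the threshold: eosinophils minus neutrophils was 1.32 (adjusted p = 0.149), neutrophils minus macrophages 1.09 (0.274) and T2M minus macrophages -0.65 (0.297). T2M minus neutrophils was -1.74 (adjusted p = 0.085). The bulk values do not separate fewer cells of a type from less RNA per cell. Neutrophil markers moved with Hp: all 5 of 5 were measured, and their mean was 6.28 to 7.77 on T2M-labelled arrays, against 10.81 to 11.60 on eosinophil-labelled arrays. The part of those markers in the Hp difference was not tested. The call between T2M and eosinophils ended without eosinophil-labelled replicate 2, at a difference of -2.49 (adjusted p = 0.0709). The call between eosinophils and macrophages ended without that array (1.84, adjusted p = 0.0688), without macrophage-labelled replicate 1 (0.0925) or 2 (0.0746), and with the macrophage-labelled arrays averaged (0.0844).

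The free hemoglobin that Hp binds comes from red cells, which the submitters lysed before sorting. Of 10 erythroid markers 5 were measured, and their mean level was 5.55 to 5.94 on T2M-labelled arrays, 5.95 to 6.28 on eosinophil-labelled, 6.17 to 6.27 on neutrophil-labelled and 6.28 to 6.73 on macrophage-labelled arrays. Hba-a2, an alpha globin gene, ran from 7.64 on T2M replicate 1 to 11.60 on eosinophil-labelled replicate 2, and its 3 lowest values were those of the T2M label. Hba-a1, Klf1 and Alas2 stayed at or under 5.99 on every array, and Slc4a1 ran from 5.65 to 6.63. The 5 markers did not share an order. T2M-labelled arrays had the lowest label mean of Hba-a2 and Slc4a1 and the highest of Hba-a1. The part of red cell RNA in the levels of Hmox1, Blvrb and Hp was not tested.

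Tfrc encodes the transferrin receptor, which takes up iron-loaded transferrin. The log2 level at its brightest probe set, 1452661_at, was 9.98, 8.64 and 8.84 on T2M-labelled arrays, 8.70 and 7.40 on eosinophil-labelled, 8.98 and 9.43 on neutrophil-labelled, and 10.81 and 10.67 on macrophage-labelled arrays. Both macrophage-labelled arrays were the highest, and T2M-labelled arrays overlapped with both granulocyte labels. Tfrc was 6.46-fold lower on eosinophil-labelled than on macrophage-labelled arrays (log2 difference -2.69, SE 0.53, adjusted p = 0.0115). T2M minus macrophages was -1.59 (SE 0.49) and missed the threshold at an adjusted p of 0.0576. That difference was called without T2M replicate 1 (-2.00, adjusted p = 0.0209). It was also called without either eosinophil-labelled array, where it stayed at -1.59 and only its error and adjustment changed. Those fits leave 1 array in the eosinophil label and are no evidence on this difference. In the order macrophages, neutrophils, T2M, eosinophils, no neighbours differed past the threshold: neutrophils minus macrophages was -1.54 (adjusted p = 0.205), T2M minus neutrophils -0.05 (0.985) and T2M minus eosinophils 1.10 (0.297). The call against macrophages ended without eosinophil-labelled replicate 2 (-2.04, adjusted p = 0.0635), without macrophage-labelled replicate 1 (0.0899) or 2 (0.07), and with the macrophage-labelled arrays averaged (0.0806).

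Tfrc has 6 probe sets on this array, 3 of them among the platform's controls for 5′, middle and 3′ parts of the transcript, and the controls were shown without a test. At 1422967_a_at the log2 level was 9.09, 7.25 and 7.78 on T2M-labelled arrays, 6.27 and 6.72 on eosinophil-labelled, 7.80 and 8.74 on neutrophil-labelled, and 9.83 and 9.80 on macrophage-labelled arrays. Eosinophils minus macrophages was -3.32 there (adjusted p over all probe sets = 0.0093), and at 1422966_a_at it was -1.68 and not called (0.237); at the level of probe sets 12.9% were called in this comparison. The -3.32 difference was no longer called without eosinophil-labelled replicate 1 (adjusted p = 0.0551), without macrophage-labelled replicate 1 (0.0788) or 2 (0.0716), or with the macrophage-labelled arrays averaged (0.077). The middle control had 5.64, 5.81 and 5.12 on T2M-labelled arrays, 4.84 and 5.67 on eosinophil-labelled, 5.79 and 6.96 on neutrophil-labelled, and 8.18 and 8.13 on macrophage-labelled arrays. At each of the 6 probe sets both macrophage-labelled arrays lay above all T2M-labelled and all eosinophil-labelled arrays. The controls differed by end: the 3′ minus 5′ gap was 0.65, -0.09 and -0.03 on T2M-labelled arrays, 1.86 and 0.03 on eosinophil-labelled, -1.06 and -0.88 on neutrophil-labelled, and -0.71 and -0.84 on macrophage-labelled arrays. T2M replicate 1 and eosinophil-labelled replicate 1, the arrays with the actin gap, also had the highest gaps here. The part of this gap in the Tfrc values was not tested. With both of these arrays left out, eosinophils minus macrophages was -3.34 at 1452661_at. That fit has eosinophil-labelled replicate 2 as the only array of its label, so it cannot settle the point.

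**Figure D3:**
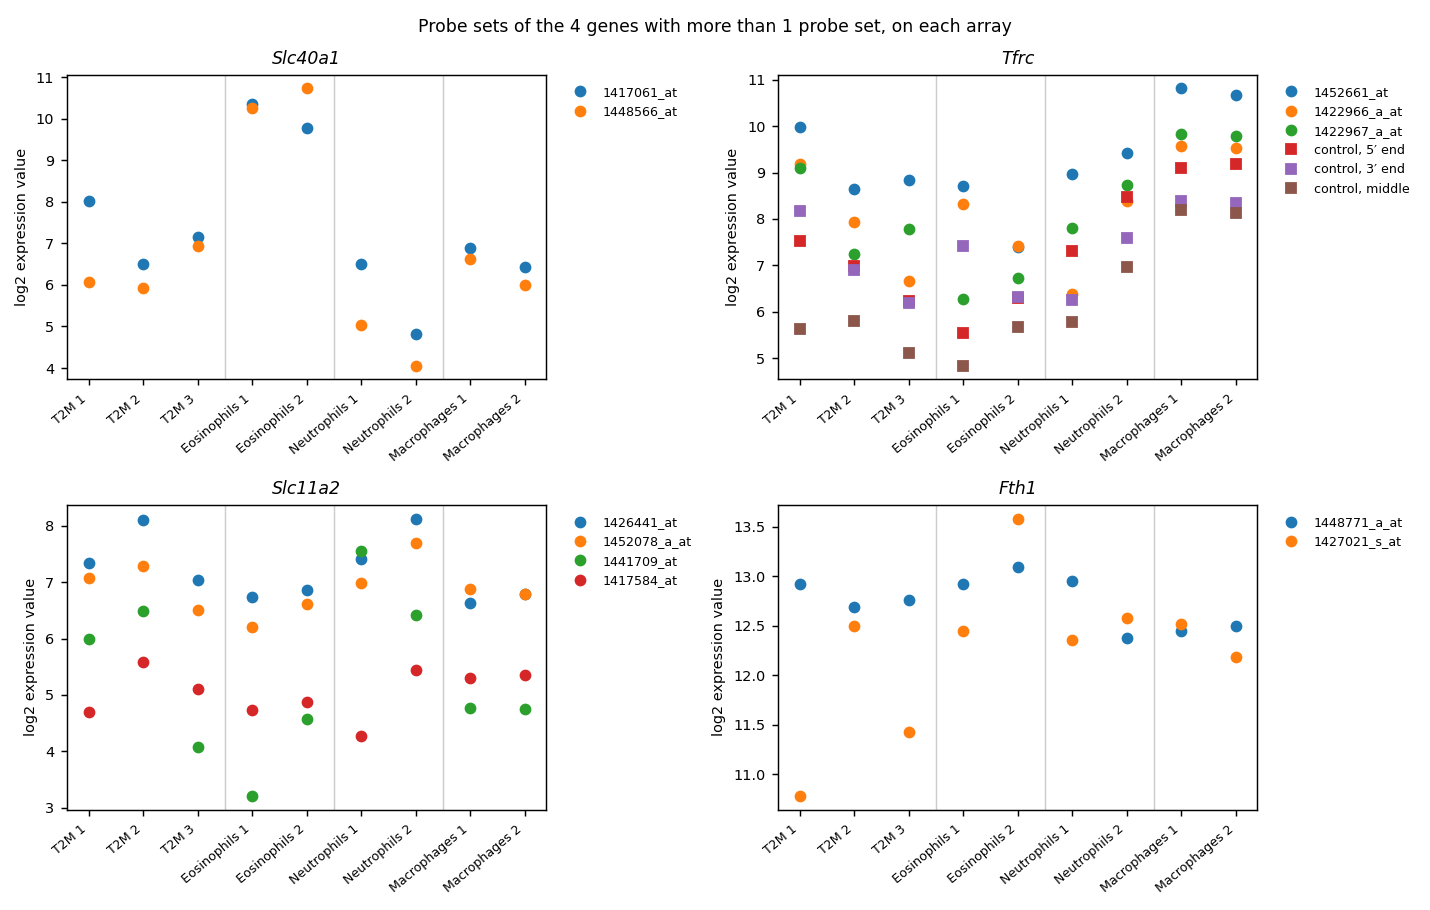
Log2 level of every probe set of the 4 members with more than 1 probe set, on each array, by label (grey lines part the labels; squares are the platform's Tfrc controls). Both probe sets of Slc40a1 are highest on eosinophil-labelled arrays and all 6 of Tfrc are higher on macrophage-labelled than on T2M-labelled or eosinophil-labelled arrays, while those of Fth1 and Slc11a2 do not share an order.

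The region just before the Tfrc start is printed because Tfrc alone of the called members is highest on macrophage-labelled arrays and a promoter window was given for it. RefSeq promoter windows (build GRCm38.p6) were given for 4 of 8 members. Tfrc has 2 windows, each with its own annotated start. The stretch below is chr16:32608646-32608898 on the plus strand, 250 bases before the start of window 1 and 3 from it. Altogether 5 short motifs were searched on both strands of each 300-base window, and capitals mark the matches in this one: CCAAT, the letters bound by the NF-Y factor, with its first base at -124 from the start, and ACGTG, the core of the hypoxia response element, from -2 across the start.
Tfrc promoter: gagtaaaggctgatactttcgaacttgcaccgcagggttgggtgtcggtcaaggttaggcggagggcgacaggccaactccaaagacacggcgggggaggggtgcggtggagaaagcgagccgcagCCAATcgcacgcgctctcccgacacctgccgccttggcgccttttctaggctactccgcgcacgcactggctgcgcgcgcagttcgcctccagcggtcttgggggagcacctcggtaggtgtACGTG
These 2 matches do not overlap. Among 32851 promoter windows of the same length, CCAAT was found in 37.4% and ACGTG in 19.6%. The other motifs were TGACNNNGC (antioxidant response, in 12.4% of windows), GGGCGG (in 35.7%) and GAGGAA (in 28.3%), and none of these was in this Tfrc window. Window 2 of Tfrc, which is not printed, had GGGCGG at -35 and 4 from its own start, and there the same ACGTG lies at -228. A match to so short a motif is a description of the letters.

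Slc11a1, also called Nramp1, encodes a metal transporter in the phagosome membrane of macrophages and neutrophils, known for resistance to microbes that live inside phagocytes. Its log2 level was 12.27, 12.46 and 12.47 on T2M-labelled arrays, 12.37 and 11.50 on eosinophil-labelled, 11.19 and 11.41 on neutrophil-labelled, and 9.87 and 9.89 on macrophage-labelled arrays. The 2 macrophage-labelled arrays were the lowest of all 9, and the 3 T2M-labelled arrays lay above both neutrophil-labelled ones. Slc11a1 was 5.74-fold higher on T2M-labelled than on macrophage-labelled arrays (log2 difference 2.52, SE 0.28, adjusted p = 0.00138), and 4.16-fold higher on eosinophil-labelled than on macrophage-labelled arrays (2.06, SE 0.31, adjusted p = 0.00351). In the order T2M, eosinophils, neutrophils, macrophages no neighbours differed past the threshold: T2M minus eosinophils was 0.47 (adjusted p = 0.49), eosinophils minus neutrophils 0.63 (0.29) and neutrophils minus macrophages 1.42 (0.0587). T2M minus neutrophils was 1.10 (adjusted p = 0.087). The 2 Slc11a1 calls were kept in all 21 alternatives run for each of them, with T2M minus macrophages between 2.47 and 2.75 and eosinophils minus macrophages between 1.62 and 2.49. The neutrophils minus macrophages difference was called without either eosinophil-labelled array, but those fits left it at 1.42. They changed only its error and adjustment, with 1 array left in the eosinophil label, and are no evidence on this difference. The mean of the 6 macrophage markers was also lowest on macrophage-labelled arrays, where 4 of the 6 had their lowest label mean, Adgre1 did not and Cd68 was at its highest. Their part in the Slc11a1 difference was not tested. With the macrophage-labelled arrays averaged, the adjusted p was 0.0272 for T2M minus macrophages and 0.0393 for eosinophils minus macrophages.

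Slc11a2, also called DMT1, encodes the divalent metal transporter that takes iron out of endosomes. At its brightest probe set, 1426441_at, the log2 level was 7.34, 8.11 and 7.04 on T2M-labelled arrays, 6.75 and 6.87 on eosinophil-labelled, 7.42 and 8.13 on neutrophil-labelled, and 6.63 and 6.79 on macrophage-labelled arrays. T2M-labelled and neutrophil-labelled arrays overlapped with each other and lay above the other two labels, and no difference passed the test. T2M minus eosinophils was 0.69 (SE 0.35, adjusted p = 0.385) and T2M minus macrophages 0.79 (SE 0.35, adjusted p = 0.144), with a 95% interval of -0.02 to 1.59. The 4 probe sets agreed in part. T2M minus eosinophils was 0.69 at 1426441_at, 0.54 at 1452078_a_at, 1.63 at 1441709_at and 0.32 at 1417584_at. In that order, eosinophils minus neutrophils was -0.97, -0.93, -3.10 and -0.06, and T2M minus macrophages 0.79, 0.11, 0.76 and -0.20. None of these was called, and the adjusted p over all probe sets was 0.0675 for the -3.10. At 1441709_at the level ran from 3.21 on eosinophil-labelled replicate 1 to 7.56 on neutrophil-labelled replicate 1. Some levels at 1441709_at and 1417584_at lie near the level of transcripts that female mice lack: 9 probe sets of 3 Y-linked genes ran from 2.03 to 4.45. At 1441709_at 2 arrays and at 1417584_at 1 array were at or under 4.45.

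Fth1 encodes the ferritin heavy chain, the subunit that oxidises iron for storage. At 1448771_a_at the log2 level was 12.92, 12.68 and 12.76 on T2M-labelled arrays, 12.92 and 13.09 on eosinophil-labelled, 12.95 and 12.38 on neutrophil-labelled, and 12.44 and 12.50 on macrophage-labelled arrays. All 9 arrays lay between 12.38 and 13.09. The label means spanned 0.54, the least of the 8 members, and no Fth1 difference passed the test. T2M minus eosinophils was -0.21 (95% interval -0.76 to 0.33), T2M minus neutrophils 0.13 (interval -0.42 to 0.67) and T2M minus macrophages 0.32 (interval -0.22 to 0.86). These intervals exclude a 2-fold difference in either direction at this probe set. The second probe set, 1427021_s_at, gave another picture: 10.78, 12.50 and 11.43 on T2M-labelled arrays, 12.44 and 13.58 on eosinophil-labelled, 12.36 and 12.58 on neutrophil-labelled, and 12.52 and 12.18 on macrophage-labelled arrays. There 2 of the 3 T2M-labelled arrays were the lowest of all 9, and T2M minus eosinophils was -1.44 (adjusted p over all probe sets = 0.219). T2M minus macrophages was -0.78 at this probe set and thus had the opposite sign. Probe sets with this suffix can match several transcripts, and Fth1 has processed copies in the mouse genome, so its levels are uncertain. Ftl1, the light chain, was not analysed here.

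Slc40a1 encodes ferroportin. At 1417061_at its log2 level was 8.02, 6.51 and 7.15 on T2M-labelled arrays, 10.35 and 9.78 on eosinophil-labelled, 6.50 and 4.82 on neutrophil-labelled, and 6.89 and 6.44 on macrophage-labelled arrays. Both eosinophil-labelled arrays lay above all others, and the other 3 labels came close to each other or overlapped. Slc40a1 was 7.18-fold lower on T2M-labelled than on eosinophil-labelled arrays (log2 difference -2.84, SE 0.57, adjusted p = 0.0306). On eosinophil-labelled arrays it was 21.2-fold higher than on neutrophil-labelled arrays (4.41, SE 0.62, adjusted p = 0.00597) and 10.6-fold higher than on macrophage-labelled arrays (3.40, SE 0.62, adjusted p = 0.00834). The label means spanned 4.41, the most of the 8 members. Below eosinophils, T2M minus macrophages was 0.56 (adjusted p = 0.472), neutrophils minus macrophages -1.01 (0.377) and T2M minus neutrophils 1.56 (0.212), and none passed the test.

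A second Slc40a1 probe set, 1448566_at, had 6.08, 5.93 and 6.95 on T2M-labelled arrays, 10.26 and 10.73 on eosinophil-labelled, 5.04 and 4.06 on neutrophil-labelled, and 6.64 and 6.00 on macrophage-labelled arrays. It showed the same high label with wider gaps. T2M minus eosinophils was -4.18 (SE 0.42, adjusted p over all probe sets = 0.0038, where 3.16% of probe sets were called), eosinophils minus neutrophils 5.95 (0.00167, 5.68% called) and eosinophils minus macrophages 4.18 (0.00167). These 3 differences kept their calls when any 1 array was left out. The call of 1417061_at between T2M and eosinophils was less steady: it ended without T2M replicate 2 (adjusted p = 0.0845) or 3 (0.0839), eosinophil-labelled replicate 1 (0.134) or 2 (0.122), or either macrophage-labelled array (0.0675 for each), with differences from -3.13 to -2.49 in these fits. Its call between eosinophils and macrophages ended without macrophage-labelled replicate 1 (0.0525) or 2 (0.0695), and with the macrophage-labelled arrays averaged (0.0617), where that of 1448566_at was kept (0.0201). The difference between the 2 probe sets was 1.94 on T2M replicate 1 and -0.95 to 1.46 on the other arrays. The neutrophil markers were highest on eosinophil-labelled arrays, as Slc40a1 was. Among the other labels their mean was highest on neutrophil-labelled arrays (7.90 to 8.17), where the Slc40a1 mean was lowest (5.66 at 1417061_at). The part of these markers in the Slc40a1 differences was not tested.

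A further 61 genes of iron and heme biology, in 9 lists, were measured. The lists were chosen with earlier results of these data known, so shares of all genes beside their counts are no test of them. Of the 61, 52 were over the median level on 2 arrays, while the shares of all genes include dim genes. Between T2M-labelled and eosinophil-labelled arrays 1 of the 61 was higher and 5 were lower on T2M-labelled arrays. Of all genes, 1.57% were higher and 2.89% lower there. Against neutrophils 3 were higher and 2 lower (all genes, 1.25% and 1.57%), and against macrophages 15 were higher and 10 lower (6.53% and 10.6%). Eosinophils minus neutrophils gave 7 higher and 3 lower (3.55% and 4.33%), eosinophils minus macrophages 14 and 9 (5.89% and 11.5%), and neutrophils minus macrophages 5 and 0 (1.13% each). The median of the 61 differences was 0.07, -0.09 and -0.06 for T2M minus eosinophils, neutrophils and macrophages, and 0.06, -0.03 and 0.18 over all genes. With the macrophage-labelled arrays averaged to 1 sample, 5 genes differed between T2M and macrophages (all genes, 2.52%) and 9 between eosinophils and macrophages (4.99%). Single arrays also moved these counts, and those of all genes with them. T2M minus macrophages had 13 calls without T2M replicate 2 (all genes, 10.7%), 11 without T2M replicate 3 (9.70%), and 7 and 5 without macrophage-labelled replicates 1 and 2 (2.39% and 2.83%). T2M minus neutrophils had 1 call without T2M replicate 2 (1.30%) or 3 (0.616%) or either macrophage-labelled array (0.594%), 2 without neutrophil-labelled replicate 2 (3.67%), and 3 without either eosinophil-labelled array (2.28%). Between eosinophils and neutrophils 16 were called without T2M replicate 1 (1821 of all 18193 genes). Between eosinophils and macrophages 14 were called without eosinophil-labelled replicate 1 (1982 of all genes) or 2 (1824) and 9 without macrophage-labelled replicate 1 (4.74%) or 2 (5.44%). Between neutrophils and macrophages 12 were called without neutrophil-labelled replicate 2 (16.5%), 3 without T2M replicate 2 (1.79%) and 2 without macrophage-labelled replicate 1 (0.478%) or 2 (0.412%).

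Lcn2 and Steap4 had the largest differences of the 61 genes between T2M-labelled and eosinophil-labelled arrays. Lcn2, which binds bacterial siderophores, was at 7.51, 7.99 and 7.87 on T2M-labelled arrays, against 12.18 and 12.63 on eosinophil-labelled arrays, a log2 difference of -4.61 (adjusted p = 0.00272). Steap4, a metalloreductase, was at 7.64, 6.74 and 7.68 on T2M-labelled arrays, against 11.86 and 11.78 on eosinophil-labelled arrays (-4.47, adjusted p = 0.00124). Both genes stood far above all other labels on eosinophil-labelled arrays, as Slc40a1 did. Ltf, or lactoferrin, which neutrophils store in granules, fell by 2.89 on T2M-labelled arrays, and Slc25a37, a mitochondrial iron importer, by 2.00. Fbxl5, an iron-sensing ubiquitin ligase subunit, fell by 2.41, and Bmp6, a ligand that raises hepcidin in liver, rose by 1.49. In the list of siderophore and lactoferrin genes 2 of 4 were lower, against 2.89% of all genes, and 0 higher, with a median difference of -1.42 against 0.06 over all genes. In the list of heme and globin uptake no gene was called, and its largest differences were those of Cd163 (2.25, adjusted p = 0.155), the macrophage receptor for hemoglobin bound to haptoglobin, and Slc48a1 (1.43, 0.206), a heme transporter. Lcn2, Ltf and Camp are granule genes of neutrophils, and neutrophil markers were highest on these same arrays; their part was not tested. Leaving out T2M replicate 3, or either macrophage-labelled array, took the count of 6 to 3. Of 21 alternatives run for each gene, the Steap4 call ended in 0, those of Lcn2 and Slc25a37 in 1 each, and those of Bmp6, Ltf and Fbxl5 in 12, 13 and 14.

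Alas1, which makes the first committed step of heme synthesis outside red cells, separated T2M-labelled and eosinophil-labelled arrays from the other two labels. Its log2 level was 11.15, 10.69 and 10.79 on T2M-labelled arrays, 10.65 and 10.02 on eosinophil-labelled, 8.03 and 7.79 on neutrophil-labelled, and 7.76 and 7.60 on macrophage-labelled arrays. T2M minus neutrophils was 2.97 (adjusted p = 0.0042) and T2M minus macrophages 3.20 (0.000424), while T2M minus eosinophils was 0.54 (0.366). The later enzymes did not share this: against macrophages Alad fell by 1.01 on T2M-labelled arrays, and Cpox (-1.26) and Fech (-1.10) were not called. The erythroid form, Alas2, fell by 1.27 in the same comparison, with all 3 T2M-labelled arrays inside the range of the Y-linked genes, which limits the size of that difference. The Alad call ended in 13 of 21 alternatives and that of Alas2 in 8 of 20. Also against neutrophils, Ncoa4, which carries ferritin to lysosomes, was higher on T2M-labelled arrays by 1.49 and Slc7a11, a cystine transporter, by 2.18, while Lrp1, a receptor for heme bound to hemopexin, was lower (-1.45) and so was Slc39a14, an iron and zinc importer (-1.31). The Alas1 call against neutrophils ended in 1 of 21 alternatives, that of Slc7a11 in 10, Ncoa4 in 14, Lrp1 in 19 and Slc39a14 in 20.

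Slc7a11 had the largest difference of the 61 genes between T2M-labelled and macrophage-labelled arrays. Its log2 level was 10.39, 10.89 and 11.01 on T2M-labelled arrays, 11.42 and 12.07 on eosinophil-labelled, 8.15 and 9.02 on neutrophil-labelled, and 4.89 and 4.27 on macrophage-labelled arrays. The 4 labels did not overlap, and T2M minus macrophages was 6.19 (adjusted p = 0.000139). Of the 2 macrophage-labelled values, 1 lies inside the range of the Y-linked genes, which ended at 4.45, and limits the size of that difference. Of 7 measured targets of the oxidative stress regulator NRF2, 4 were called higher on T2M-labelled arrays, Slc7a11, Srxn1 (2.66), Nqo1 (2.43) and Txnrd1 (1.07), and 0 lower, against 6.53% and 10.6% of all genes. Gsr (-0.70) and Gclm (-0.46) were not called. Hmox1, itself a target of NRF2, differed by -0.12. Epas1, the hypoxia-inducible factor HIF-2α, rose by 4.09 and Hif1a by 1.91. These differences were not particular to the T2M label. Against macrophages, 4 of the 7 targets were also called higher on eosinophil-labelled arrays (all genes, 5.89%) and 3 on neutrophil-labelled arrays (1.13%). For T2M, eosinophils, neutrophils and macrophages, in that order, Srxn1 means were 8.68, 9.42, 9.36 and 6.01. Those of Txnrd1 were 9.53, 10.79, 10.16 and 8.45, and those of Hif1a 11.43, 11.81, 11.18 and 9.52. Nqo1 (7.01, 6.85, 5.53 and 4.58) and Epas1 (10.94, 9.49, 9.43 and 6.86) were highest on T2M-labelled arrays. Markers of other cell types also differed between T2M and macrophages. The mean of 5 structural markers was 8.50 to 8.86 on T2M-labelled arrays, against 6.72 to 7.15 on macrophage-labelled arrays. That of the 5 eosinophil markers was 8.94 to 9.26, against 4.42 to 4.49. Cdh5, an endothelial gene among the structural markers, was at 6.83, 8.57 and 8.50 on T2M-labelled arrays, against 4.86 and 5.21 on macrophage-labelled arrays. Of the 5 structural markers, 4 had their lowest label mean on macrophage-labelled arrays. Epcam went the other way, at 7.37, 7.50 and 7.44 on T2M-labelled arrays, against 8.47 and 8.03 on macrophage-labelled arrays. The part of these markers in the differences of Epas1, Hif1a and the NRF2 targets was not tested. Spic, a factor that red pulp macrophages need, was at 7.69, 5.12 and 4.03 on T2M-labelled arrays, against 9.13 and 9.06 on macrophage-labelled arrays, and fell by 3.48; T2M replicate 3 lies inside the range of the Y-linked genes. The calls of Slc7a11, Srxn1 and Alas1 against macrophages were kept in all 21 alternatives, that of Epas1 ended in 1 and that of Hif1a in 2, and those of Nqo1, Spic and Txnrd1 in 8, 9 and 12.

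In the same comparison of T2M with macrophages, genes of hemoglobin and heme uptake split. Cd163 was at 11.47, 10.13 and 10.45 on T2M-labelled arrays, 9.87 and 6.98 on eosinophil-labelled, 10.66 and 10.91 on neutrophil-labelled, and 7.80 and 7.66 on macrophage-labelled arrays. It was thus high on T2M-labelled and neutrophil-labelled arrays, and T2M minus macrophages was 2.95 (adjusted p = 0.0321). Hpx, or hemopexin, rose by 0.78, with means of 4.28 on T2M-labelled and 3.50 on macrophage-labelled arrays that both lie inside the range of the Y-linked genes, while Lrp1 fell by 2.12 and Hmox2, the constitutive heme oxygenase, by 0.97. Of the iron chaperones that load ferritin, Pcbp1 fell by 2.46 and Pcbp2 by 1.35. Hamp, or hepcidin, the hormone that causes ferroportin to be degraded, rose by 1.78, with both macrophage-labelled arrays inside that range, and Hfe, an upstream regulator of hepcidin in liver, fell by 1.63. Steap4 (2.50), Slc39a8 (2.54), Lcn2 (2.11), Ncoa4 (1.47) and Bmp6 (1.77, with 1 macrophage-labelled array inside that range) were also higher and Keap1 (-1.09) and Iscu (-1.14) lower on T2M-labelled arrays. The calls named here ended in 1 (Steap4) to 11 (Hpx and Hmox2) of the alternatives, that of Cd163 in 7.

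**Figure D4:**
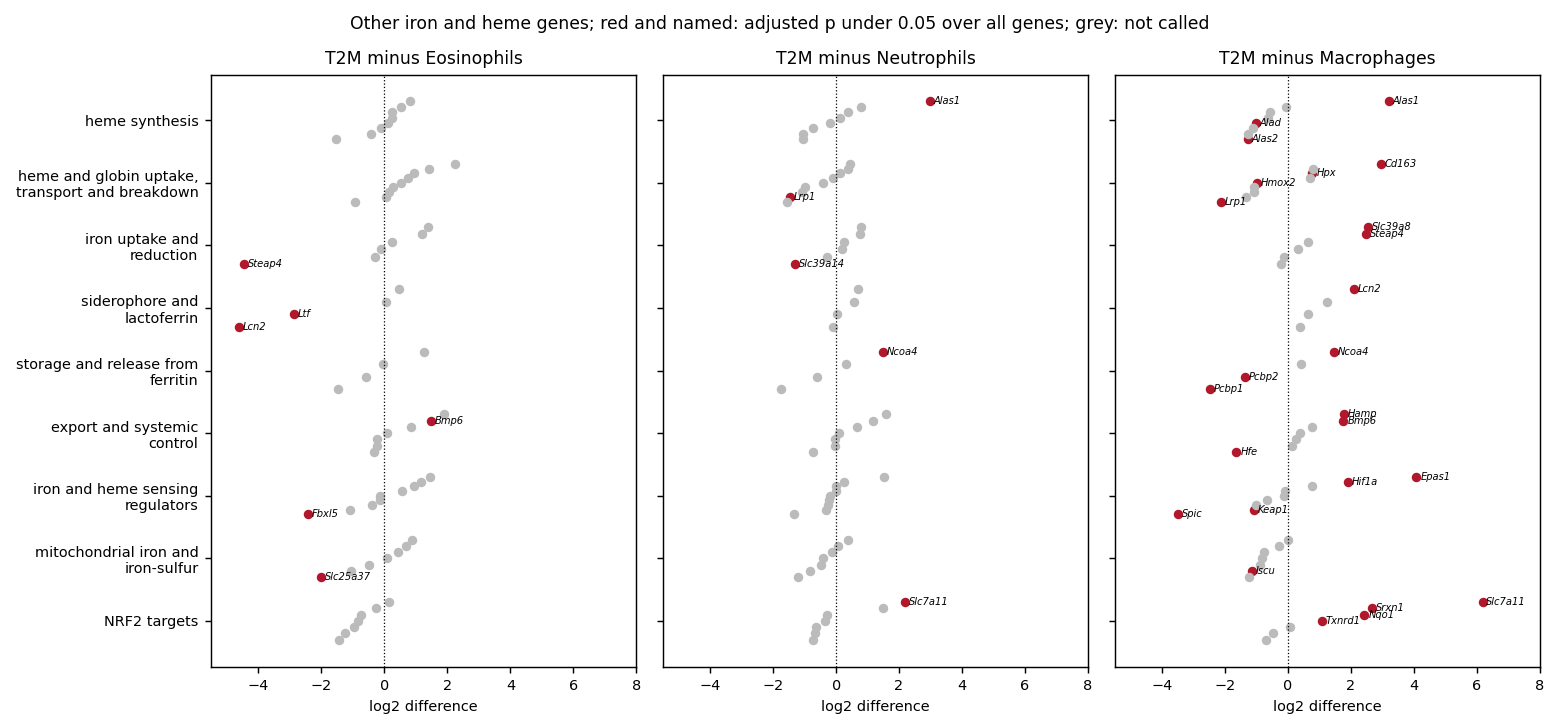
Log2 difference of the 61 other iron and heme genes between T2M-labelled arrays and each other label, by list (1 dot per gene; red and named, adjusted p under 0.05 over all genes). The T2M minus eosinophils panel has 6 red dots, 5 of them below 0, the T2M minus neutrophils panel 5 and the T2M minus macrophages panel 25, with Slc7a11 farthest to the right at 6.19.

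The genes whose levels followed those of a member most closely over the 9 arrays were found by the root mean square difference of log2 values, after each gene was centred on its own mean. Closest to Slc40a1 were Kbtbd7 (0.54), Il18r1 (0.56) and Vsig10 (0.59), all highest on eosinophil-labelled arrays. Closest to Hp were Cd300ld (0.39), Hgsnat (0.39) and Tmem243 (0.46). For Tfrc they were Slc35a1 (0.30), Mrps35 (0.30) and Sumf1 (0.31), and for Slc11a1 Mmd (0.23), Tcn2 (0.27) and H1f2 (0.31). Slc11a1 and Mmd fell into the same order of labels, with Mmd means of 9.57 (T2M), 9.10 (eosinophils), 8.34 (neutrophils) and 7.33 (macrophages). Comtd1 was among the 3 closest genes of both Hmox1 (0.30) and Blvrb (0.24), the pair of heme breakdown genes. The others were Pwwp2b and Hemk1 for Hmox1, Cd320 and Irs2 for Blvrb, and Cldn10, Higd1a and Fgf2 for Slc11a2. The label means of Fgf2 (2.68 to 3.83) lie inside the range of the Y-linked genes, which ended at 4.45. Those of Cldn10 (4.02 to 4.82) and Cd320 (3.88 to 4.93) lie in or near it, which limits these likenesses. Fth1 spanned less than 1 between label means and was left out. These likenesses rest on the same 9 arrays and describe them.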

How the data were processed

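RNA of 9 sorted pools was hybridised to Affymetrix mouse arrays. The authors deposited 1 log2 expression value per probe set and array; the submitters' processing notes name the tools affy, RMA and limma, and their versions and settings are not given in the sources used here. Samples were grouped by label. Members and gene lists were chosen with earlier results of these data known. Of 45101 probe sets, 64 controls were set apart; 18193 genes were each represented by their brightest probe set on average. Group means were fitted with limma 3.58.1 (R 4.3.3; eBayes, two-sided, all 9 arrays, 5 residual degrees of freedom), with Benjamini-Hochberg adjustment over all genes of a comparison; probe sets were tested likewise over 45037. The number of arrays limits the precision: the median SE was 0.31 for comparisons with T2M. Named were all members, called genes of the lists, up to 2 uncalled genes a list with the largest differences, the 3 closest genes by pattern, and markers, Y-linked genes and control probe sets beside a result. The fit was tested on simulated data. As alternatives, probe sets were averaged or kept apart, dim genes were removed, arrays were rescaled, weighted, left out or blocked by replicate number, and the spread was moderated in other ways. Figures were drawn with matplotlib 3.10.9.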

Additional observations from a re-analysis of the deposited data

How the results depend on the processing

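Of 1008 member differences recomputed under the alternatives, 928 kept their direction and their side of the threshold, 28 lost a call, 18 gained one and 34 changed sign; no called difference changed sign. Between T2M and eosinophils, 0 members were called without moderation and with only the arrays of both labels, 1 with the macrophage-labelled arrays averaged and 1 with T2M replicate 1 and eosinophil-labelled replicate 1 both left out (an alternative chosen after seeing the data), and 0 to 2 when single arrays were left out. With that pair left out, 1 member was called between T2M and neutrophils, 2 between T2M and macrophages, 3 between eosinophils and neutrophils and 2 between neutrophils and macrophages. Between T2M and macrophages 2 were called with the filter on dim genes, 2 with only the arrays of both labels, 3 with array weights and 1 to 2 with single arrays left out. Without moderation 0 were called between eosinophils and neutrophils (1 to 2 with single arrays left out) and 1 between eosinophils and macrophages, where averaging the macrophage-labelled arrays also gave 1 and leaving out single arrays 1 to 4. Between neutrophils and macrophages the mean over probe sets and quantile normalization gave 1 each, and single arrays left out 0 to 1. Averaging uses fewer samples, and the cause of the other changes was not tested. The share of all genes called moved too. Without moderation it was 0.830% for T2M minus eosinophils, and 2.22% and 9.36% for eosinophils minus neutrophils and macrophages. Only the arrays of both labels gave 2.18% for T2M minus eosinophils and 27.4% for T2M minus macrophages, where array weights gave 55.9%. For neutrophils minus macrophages the mean over probe sets gave 3.30% and quantile normalization 2.31%.

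The replicate block changed no member count of the 6 comparisons, and in the F test over the labels it ended the Tfrc call (adjusted p = 0.055). The deviations of same-numbered arrays correlated at 0.51 for T2M with eosinophils and at -0.18 to 0.03 for the other pairs of labels. T2M replicate 1 correlated at 0.924 with eosinophil-labelled replicate 1 and at 0.875 with replicate 2. These 2 first replicates also had the actin gap (0.61 and 0.54). A factor shared by them was not tested. The main fit takes no pairs, because the labels state none, and for T2M with eosinophils the value of 0.51 does not justify that choice. With the block, 3 of the 61 other iron and heme genes were called for T2M minus eosinophils (all genes, 1.98%) and 1 for T2M minus neutrophils (0.236%). For T2M minus macrophages 12 were called (9.53%), and for neutrophils minus macrophages 3 (1.45%). The share of all genes called was thus also lower with the block than the 4.46%, 2.82%, 17.2% and 2.26% of the main fit, in that order.

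For these 61 genes, in alternatives added after seeing the data, T2M minus eosinophils had 2 calls without moderation, 10 with array weights, 3 with averaged macrophage-labelled arrays and 3 to 6 with single arrays left out. T2M minus neutrophils had 3 with the mean over probe sets, equal medians or quantile normalization, 2 with probe sets tested separately or with trend and robust eBayes, 1 without moderation, with array weights or with averaged macrophage-labelled arrays, 0 with only the arrays of both labels, and 1 to 5 with single arrays left out. T2M minus macrophages had 9 without moderation, 43 with array weights, 5 with averaged macrophage-labelled arrays and 5 to 28 with single arrays left out. Eosinophils minus neutrophils had 5 without moderation, 4 with only the arrays of both labels and 7 to 16 with single arrays left out. Eosinophils minus macrophages had 11 without moderation, 9 with averaging and 9 to 27 with single arrays left out, and neutrophils minus macrophages 2, 2 and 2 to 12. Over all genes the share called moved as well. For T2M minus neutrophils it was 3.11% with the mean over probe sets, 2.80% with equal medians, 2.66% with quantile normalization and 2.19% with trend and robust eBayes. With only the arrays of both labels 0 of 18193 genes were called there, so the 0 of 61 says nothing of these genes. That alternative called 1.18% of all genes for eosinophils minus neutrophils. Without moderation the share was 0.830%, 0.225% and 7.92% for T2M minus eosinophils, neutrophils and macrophages. It was 2.22% and 9.36% for eosinophils minus neutrophils and macrophages, and 0.912% for neutrophils minus macrophages. With array weights it was 7.84%, 0.291% and 55.9% for the 3 comparisons with T2M, and with averaging 2.11%, 0.594% and 2.52%. With single arrays left out it ran from 1.06% to 6.66%, 0.594% to 4.93% and 2.39% to 27.9% for the comparisons with T2M, and from 0.412% to 16.5% for neutrophils minus macrophages.

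The differences that changed sign were not called in any of these fits, and the cause was not tested. For T2M minus eosinophils Hmox1 was 0.19 with quantile normalization and 0.14 with the block, and Blvrb 0.065 with the block; with single arrays left out Hmox1 ran from -0.97 to 0.86 and Blvrb from -0.54 to 0.43. For T2M minus neutrophils Tfrc was 0.086 with the mean over probe sets, 0.17 with quantile normalization and 0.11 with the block, and Fth1 -0.38 with the mean over probe sets; with single arrays left out Tfrc ran from -0.46 to 0.21, Slc11a2 from -0.63 to 0.075 and Fth1 from -0.16 to 0.41. For T2M minus macrophages Hmox1 was 0.20 with quantile normalization and 0.073 with the block, Blvrb 0.16 with quantile normalization and Fth1 -0.23 with the mean over probe sets; with single arrays left out Hmox1 ran from -0.25 to 0.073 and Blvrb from -0.60 to 0.0057. For eosinophils minus macrophages Hmox1 was 0.029 with equal medians, 0.014 with quantile normalization and 0.85 with the pair of first replicates left out, Blvrb 0.29 with quantile normalization and 0.25 with that pair left out, and Slc11a2 -0.43 with the mean over probe sets; with single arrays left out Hmox1 ran from -0.98 to 0.85 and Blvrb from -0.73 to 0.25. For neutrophils minus macrophages Fth1 ran from -0.090 to 0.48.

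Scaling moved the balance of all calls: with equal medians the share of lower calls was 75.8% in place of 64.8% for T2M minus eosinophils, whose median difference became -0.09 in place of 0.06, and 43.4% in place of 55.0% for eosinophils minus neutrophils. Quantile normalization gave 39.5% in place of 55.6% for T2M minus neutrophils. Dim probe sets near the Y-linked level limit the second Slc40a1 and 2 Slc11a2 probe sets.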
